A study of Homo sapiens with 6 samples.

Results

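A set of 10 genes in 4 families of neuronal secretion and synaptic signalling was examined in HL-60 cells: the granins SCG2, SCG3 and SCG5, the GABA-B receptor subunits GABBR1 and GABBR2, the scaffolds GRIP1 and GRIP2, and the glutamate transporters SLC1A1, SLC1A2 and SLC1A3. These 10 genes, of 58884 in the deposited table, were chosen by the difference between EZH2 shRNA and control shRNA libraries, as risers set against relatives that were low or absent. Their differences in that contrast are therefore a description and carry no test. HL-60 is an established RAS-mutated acute myeloid leukemia line whose cells resemble promyelocytes. The EZH2 shRNA group (3 libraries, numbered 1, 3 and 4) carried a lentiviral hairpin against EZH2, and the control shRNA group (3 libraries, numbered 3, 4 and 5) a scrambled hairpin. Both groups shared puromycin selection, removal of the drug 2 days ahead, and 24 hours in RPMI-1640 with 0.05% serum. The design text calls the lines knock-outs, whereas the labels describe a stable knockdown. Separate transductions or cultures are not stated for the libraries of either group, so each p-value reflects library-to-library spread that could be technical.

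EZH2 is the methyltransferase of Polycomb repressive complex PRC2, which marks histone H3 at lysine 27 and is known for holding developmental and lineage-foreign genes silent, often at promoters rich in CG dinucleotides. Granins are stored in the dense core granules of neurons and endocrine cells. The GABA-B receptor is a heterodimer: GABBR1 binds the ligand, and GABBR2 carries it to the cell surface and couples to G proteins. GRIP proteins hold AMPA-type glutamate receptors through PDZ domains, and SLC1A transporters clear glutamate from the space around synapses.

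Libraries held between 50809853 and 85074624 counts in the EZH2 shRNA group and between 39717343 and 51622861 counts in the control group. The targeted gene EZH2 had 17.4, 18.3 and 16.9 FPKM in the EZH2 shRNA libraries, against 32.6, 33.2 and 33.1 FPKM in the control libraries (log2 fold change -0.90, adjusted p = 3.22e-11, edgeR quasi-likelihood test). FPKM is the fragment count per gene length and library size. The granulocyte marker MPO was abundant in both groups, at 9420 CPM (counts scaled to a common library size) in EZH2 shRNA cells and 9800 CPM in control cells, whereas ELANE, the neutrophil elastase gene, had only 27 counts in EZH2 shRNA cells and 5 in control cells. Of 16859 genes that passed the expression filter, 23.8% were called higher and 22.9% lower at an adjusted p under 0.05, and the median log2 fold change was 0.01.

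The genes were chosen as risers beside relatives that were low or absent, so a contrast within each family follows from that choice. SCG2, GABBR1, GRIP1 and SLC1A1 had 46 counts or fewer over the control libraries and stood 29.0 to 146 times higher in EZH2 shRNA cells by scaled counts. Their relatives SCG5 and SLC1A3 differed little between the groups, and GABBR2 and GRIP2 had no counts. SCG3 had 35 counts in EZH2 shRNA cells and 0 in control cells, and SLC1A2 had 2 and 0.

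Promoter sequence was compared because genes of 1 family lay far apart in level. RefSeq promoters (GRCh38.p14, 250 bases before to 50 after a start site) were matched for 6 of the 10 genes: SCG3, SCG5, GABBR1, GABBR2, SLC1A1 and SLC1A3. SCG2, GRIP1, GRIP2 and SLC1A2 had no entry. The bases upstream of the start site, 5′ to 3′ on the gene's strand and cut where an annotated exon begins, are printed for the receptor pair and for SLC1A1, with each CG dinucleotide in capitals. They lie at chr6:29628039-29628263 (minus strand) for GABBR1, chr9:98708936-98709185 (minus strand) for GABBR2 and chr9:4490218-4490467 (plus strand) for SLC1A1. The start site of the GABBR1 window, 29628013, lies inside the deposited gene, whose 5′ end is at 29633976. Sequence at that outer end was not examined.
GABBR1: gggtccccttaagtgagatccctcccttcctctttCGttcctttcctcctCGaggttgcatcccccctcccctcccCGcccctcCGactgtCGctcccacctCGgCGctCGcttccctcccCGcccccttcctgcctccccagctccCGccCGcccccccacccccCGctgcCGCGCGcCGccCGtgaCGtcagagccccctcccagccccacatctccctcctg
GABBR2: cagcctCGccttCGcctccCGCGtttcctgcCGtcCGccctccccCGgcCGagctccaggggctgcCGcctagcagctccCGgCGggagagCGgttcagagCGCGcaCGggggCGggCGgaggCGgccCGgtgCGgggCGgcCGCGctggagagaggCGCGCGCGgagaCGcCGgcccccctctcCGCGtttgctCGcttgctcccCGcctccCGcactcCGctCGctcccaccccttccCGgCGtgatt
SLC1A1: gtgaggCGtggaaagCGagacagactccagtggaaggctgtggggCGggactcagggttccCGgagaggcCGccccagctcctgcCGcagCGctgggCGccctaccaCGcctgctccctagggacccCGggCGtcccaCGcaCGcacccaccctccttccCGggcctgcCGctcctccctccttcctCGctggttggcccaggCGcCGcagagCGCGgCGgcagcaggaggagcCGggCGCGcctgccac

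All 3 promoters were rich in CG. The full 300-base window of GABBR2 held 50 CG dinucleotides, more than 98.7% of 35116 promoters in the table, whose median was 14. SLC1A1 had 33 and GABBR1, in its window inside the deposited gene, had 29, more than 82.8% and 75.8% of promoters. SCG3 had 18 and SCG5 11. The 3 windows of SLC1A3 had 1, 9 and 10, below the median. The window with 1 has its start site at 36596588, upstream of the deposited gene, which begins at 36606355. In the windows with 9 and 10, all 250 bases before the start site lie in annotated exons. Among the genes matched, the richest promoter belonged to GABBR2, which had no count in any library. SLC1A1 and GABBR1, both far above control, lay between it and SCG3, SCG5 and SLC1A3. SCG2 and GRIP1, also far above control, had no promoter entry. A relation of CG content to level or to the difference between groups was not tested.

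Both strands were searched for 4 motifs: TATAAA (the TATA box), TGACGTCA (the palindromic cAMP response element), and CAGCACC and GGACAGC, the left and right parts of the element bound by the neuronal gene repressor REST. TATAAA, found in 11.5% of all promoters, was in none of the 6 genes. TGACGTCA, found in 1.85%, was in GABBR1 alone, where it begins at position -65 from the start site inside the deposited gene. CAGCACC occurs in 7.75% of promoters and GGACAGC in 6.03%, and each was in SCG3 alone. There the parts follow each other with 8 bases between them, beginning 10 and 25 bases past the start site. CAGCACC followed by GGACAGC within 20 bases was found in 41 of the 35116 promoters (0.117%). That search allowed any gap within the limit, so a match need not have the spacing of the REST element. The stretch, at chr15:51681511-51681537 on the plus strand, is shown with both parts in capitals.
SCG3: ttCAGCACCcacagggcGGACAGCgct
A match describes letters in a window, and binding was not measured here.

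SCG2 had the highest level of the 10 genes in EZH2 shRNA cells. SCG2 (ENSG00000171951; chr2:223596940-223602361, minus strand) encodes secretogranin II, a granin cut into peptides such as secretoneurin. It had 8.19, 7.29 and 7.79 FPKM in the EZH2 shRNA libraries, against 0.108, 0.126 and 0.164 FPKM in the control libraries. The groups lay far apart, and the 3 EZH2 shRNA libraries were within a factor of 1.12 of each other. The summed counts were 3791 in EZH2 shRNA cells and 46 in control cells, a scaled ratio of 58.7 (95% counting interval 43.9 to 80.3), and the log2 fold change was 5.87 ± 0.13 (SE, n = 3 each). Among 29060 genes with a count, SCG2 stood above 80.9% in FPKM in EZH2 shRNA cells and above 41.0% in control cells. No annotated gene overlaps it. In bulk RNA, more cells expressing a gene and more RNA per cell cannot be told apart.

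The related granins were near the limit of detection. SCG3 (ENSG00000104112; chr15:51681492-51721026, plus strand), secretogranin III, binds chromogranin A and sorts it to granules. It had 9, 3 and 23 counts in the EZH2 shRNA libraries (0.0565, 0.0176 and 0.0847 FPKM), against 0 counts in each of the 3 control libraries. Set against a floor of 3 counts over the control group, it was 8.31-fold higher in EZH2 shRNA cells, taking the 35 EZH2 shRNA counts as exact. That value is not a strict lower limit. The lower limit of the 95% counting interval of the ratio was 6.41. Library 4 held 23 of the 35 counts, and without it the value at the floor was 5.19-fold. SCG5 (ENSG00000166922; chr15:32641676-32697098, plus strand) encodes 7B2, the chaperone of the prohormone convertase PCSK2. It had 0.0997, 0.237 and 0.154 FPKM in the EZH2 shRNA libraries and 0.161, 0.0348 and 0.118 FPKM in the control libraries. The groups overlapped, on 11, 28 and 29 counts in EZH2 shRNA cells and 14, 4 and 11 in control cells, with a log2 fold change of 0.71 ± 0.48 (SE). SCG2 was thus 47.4 times as high as SCG5 in FPKM in EZH2 shRNA cells and 1.27 times as high in control cells.

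**Figure D1:**
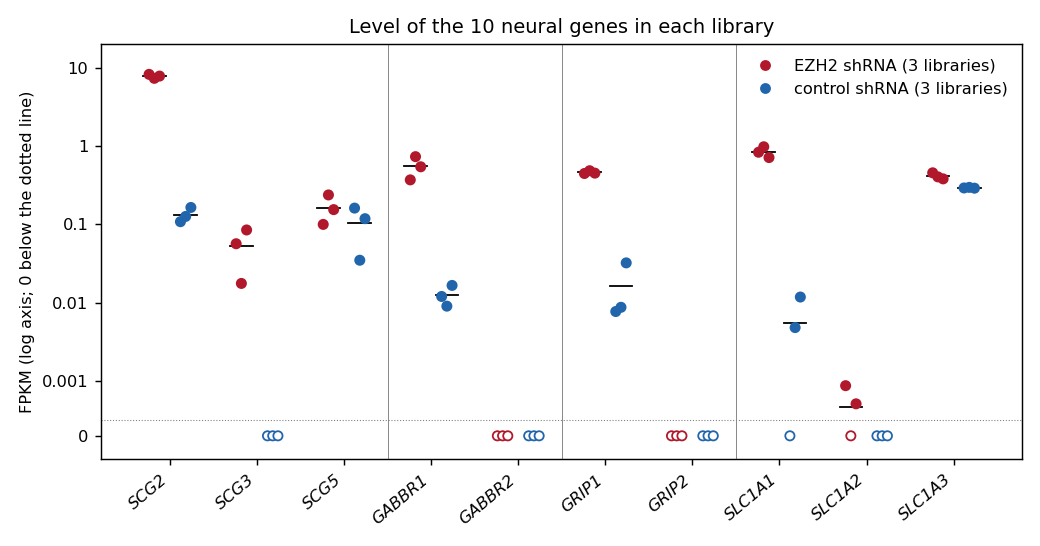
Deposited FPKM of the 10 genes on a log axis, with EZH2 shRNA libraries in red left of control shRNA libraries in blue. Each point is 1 library, bars are group means, and hollow points are 0. SCG2, GABBR1, GRIP1 and SLC1A1 separate widely, SCG5 overlaps, and GABBR2 and GRIP2 are at 0 in all 6 libraries.

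Of the GABA-B receptor, only the ligand-binding subunit had counts. GABBR1 (ENSG00000204681; chr6:29555629-29633976, minus strand) had 0.369, 0.730 and 0.542 FPKM in the EZH2 shRNA libraries, against 0.0120, 0.00903 and 0.0166 FPKM in the control libraries. Every EZH2 shRNA library was above every control library, but the EZH2 shRNA libraries themselves differed 1.98-fold. The counts were 157, 333 and 393 in EZH2 shRNA cells and 4, 4 and 6 in control cells, a scaled ratio of 44.9 (95% counting interval 26.6 to 82.5) and a log2 fold change of 5.45 ± 0.36 (SE). The variance among EZH2 shRNA libraries was 25.8 times that of counting alone, above 99.0% of 2596 genes of like count, whose median was 2.31. EZH2 shRNA library 1 was the lowest and library 3 the highest. GABBR2 (ENSG00000136928; chr9:98288109-98708935, minus strand) had 0 counts in all 6 libraries. A floor of 3 counts corresponds to 0.0159 CPM over the EZH2 shRNA group and 0.0224 CPM over the control group. GABBR1 averaged 4.67 CPM in EZH2 shRNA cells and 0.107 CPM in control cells.

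Of the scaffold pair, only GRIP1 had counts. GRIP1 (ENSG00000155974; chr12:66347431-67069162, minus strand) had 0.445, 0.483 and 0.450 FPKM in the EZH2 shRNA libraries, against 0.00771, 0.00873 and 0.0322 FPKM in the control libraries. The EZH2 shRNA libraries were close together, and control library 5 was the highest of its group. The counts were 147, 171 and 253 in EZH2 shRNA cells and 2, 3 and 9 in control cells, a scaled ratio of 29.0 (95% counting interval 17.2 to 53.5) and a log2 fold change of 4.83 ± 0.30 (SE). Without control library 5 the log2 fold change was 5.74. The variance of GRIP1 among EZH2 shRNA libraries was 0.314 times that of counting, above only 9.19% of 2458 genes of like count. GRIP2 (ENSG00000144596; chr3:14489107-14556075, minus strand) had 0 counts in all 6 libraries, with the same floors as GABBR2.

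Of the 3 glutamate transporters, SLC1A1 differed far more between groups than SLC1A3, and SLC1A2 was near 0. SLC1A1 (ENSG00000106688; chr9:4490468-4587469, plus strand), the neuronal transporter EAAT3, had 0.831, 0.976 and 0.711 FPKM in the EZH2 shRNA libraries, against 0, 0.00481 and 0.0118 FPKM in the control libraries. That is 617 counts in EZH2 shRNA cells and 3 in control cells, a scaled ratio of 146 (95% counting interval 49.9 to 712). Every EZH2 shRNA library was far above every control library. The width of the interval comes from the 3 control counts. SLC1A2 (ENSG00000110436; chr11:35251205-35420063, minus strand), the main astrocyte transporter EAAT2, had 1, 0 and 1 counts in the EZH2 shRNA libraries and 0 in each control library, below the floor in both groups, so no fold is given.

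SLC1A3 (ENSG00000079215; chr5:36606355-36688334, plus strand), the glial transporter GLAST, was present in both groups. It had 0.454, 0.403 and 0.380 FPKM in the EZH2 shRNA libraries, against 0.291, 0.296 and 0.289 FPKM in the control libraries. The groups did not overlap, but the difference was small, with a scaled count ratio of 1.40 (95% counting interval 1.20 to 1.64) and a log2 fold change of 0.50 ± 0.15 (SE). In control cells SLC1A3 was the highest of the 10 genes, whereas in EZH2 shRNA cells its range overlapped that of GRIP1.

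By mean FPKM in EZH2 shRNA cells the order was SCG2, SLC1A1, GABBR1, GRIP1, SLC1A3, SCG5, SCG3 and SLC1A2, with GABBR2 and GRIP2 at 0. The ranges of SLC1A1 and GABBR1, of GABBR1 and GRIP1, and of GRIP1 and SLC1A3 overlapped, so those neighbours in the order do not differ beyond their spread. In control cells the order was SLC1A3, SCG2, SCG5, GRIP1, GABBR1 and SLC1A1, with the other 4 at 0, and only SLC1A3 from SCG2 and SCG5 from GRIP1 were separate neighbours. Apart from SCG2, no gene of the 10 reached 1 FPKM in any library, and the median over genes with a count was 0.376 FPKM in EZH2 shRNA cells. Of the 10 genes, 6 were above control in every EZH2 shRNA library, and 18.4% of all genes with a count were. That count follows from how the genes were chosen. Of the 10 genes 6 passed the expression filter (SCG2, SCG5, GABBR1, GRIP1, SLC1A1 and SLC1A3), 2 had counts but did not pass, and 2 had none.

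Genes that overlap these loci were listed because the strand setting of the authors' counting is not given in the sources used here. Without it, reads of a gene and of its antisense partner may not be separated. Shared exon bases, here and below, are those of GENCODE release 44 and need not hold for the annotation behind the counts. The length implied by the deposited FPKM was 6570 bases for GRIP1 and 6265 for SLC1A3. That release gives them 7135 and 21227 exon bases. SLC1A1 shares 34084 bases with SPATA6L on the opposite strand, but no exon bases in GENCODE release 44. SPATA6L had 0.325 CPM in EZH2 shRNA cells and 0.136 CPM in control cells (log2 fold change 1.24, adjusted p = 0.0243, edgeR), whereas SLC1A1 had 3.36 CPM in EZH2 shRNA cells and 0.0221 CPM in control cells. The SPATA6L call was lost with DESeq2 (adjusted p = 0.126) and when control library 3 (adjusted p = 0.0747), control library 4 (adjusted p = 0.0965) or EZH2 shRNA library 3 (adjusted p = 0.0757) was left out of the edgeR fit. GRIP1 shares 215 bases with HELB, a DNA helicase gene, but no exon bases in GENCODE release 44. In the deposited coordinates those bases lie at the ends of both genes, so they may be exonic there. HELB went the other way, at 9.43 CPM in EZH2 shRNA cells and 11.4 CPM in control cells (log2 fold change -0.28, adjusted p = 0.0106, edgeR). Without EZH2 shRNA library 4 the adjusted p of HELB was 0.0747.

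The silent genes also had active partners. GRIP2 shares 243 exon bases with SLC6A6, the taurine transporter gene, which had 43.7 CPM in EZH2 shRNA cells and 30.6 CPM in control cells (log2 fold change 0.52, adjusted p = 5.08e-07, edgeR). No read was nevertheless counted to GRIP2. GABBR2 shares 95 exon bases with the pseudogene SEPT7P7, at 4.03 CPM in EZH2 shRNA cells and 4.32 CPM in control cells (adjusted p = 0.590, edgeR), and again none was counted to GABBR2. SLC1A3 shares 147 exon bases with the antisense gene AC008957.1, whose level of 2.04 CPM in EZH2 shRNA cells and 2.06 CPM in control cells (adjusted p = 0.990, edgeR) was close to that of SLC1A3 itself, at 2.60 CPM in EZH2 shRNA cells and 1.83 CPM in control cells. GABBR1 shares 722 exon bases with each of UBD, on the same strand, and OR2I1P, and both had 0 counts in all 6 libraries.

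**Figure D2:**
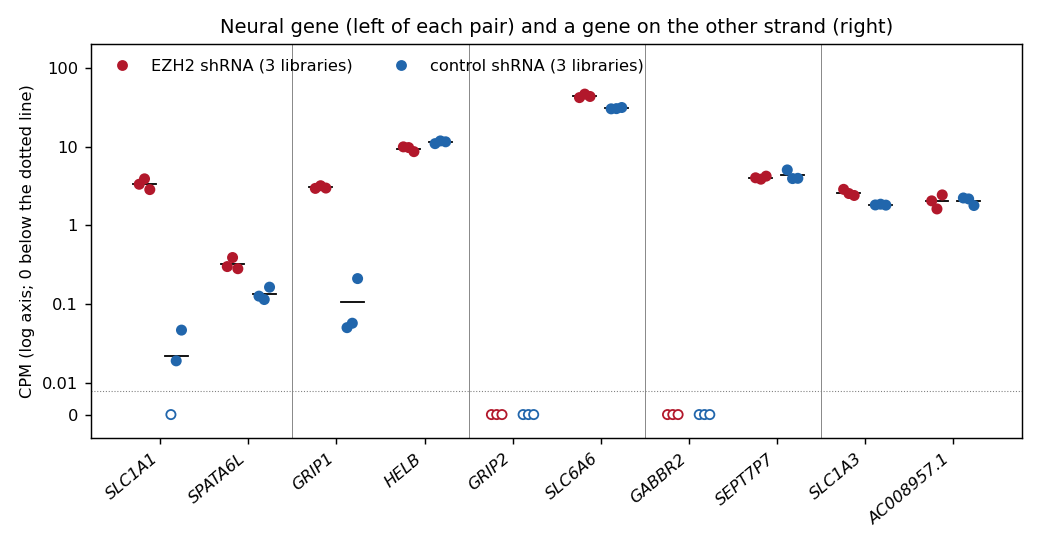
CPM on a log axis for 5 of the neural genes, each left of a gene that overlaps it on the other strand. EZH2 shRNA libraries are red and left of control shRNA libraries in blue, each point is 1 library, bars are means and hollow points are 0. SLC1A1 and GRIP1 separate by group far more than SPATA6L and HELB, and GRIP2 and GABBR2 are at 0 beside partners with counts.

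Genes beside SCG2, GABBR1, GRIP1 and SLC1A1 had smaller differences than those 4 genes themselves. Those 4 genes were chosen as risers in this contrast, so the choice favoured that result. The 3 nearest tested genes on each side of all 10 loci, 60 in all, had log2 fold changes between -0.70 and 1.45, with a median of 0.04, and 12 were called higher and 18 lower, beside 23.8% and 22.9% of all tested genes. SCG2 stood beside genes that fell: of its 6 neighbours 4 were lower, with log2 fold changes of -0.50 for ACSL3, -0.13 for FARSB, -0.70 for AP1S3 and -0.55 for WDFY1 (adjusted p = 2.22e-08, 0.0101, 0.00685 and 8.57e-04, edgeR), and none was higher. The median over the 718 tested genes of chromosome 2 with a mean log2 CPM above 2 was -0.30. Around SCG5, whose own log2 fold change was 0.71 with overlapping groups, 3 of 6 were higher: GOLGA8N (0.82), AC010809.2 (1.17) and AC010809.1 (0.85). AC010809.2 and AC010809.1 had few counts and lay 1154687 and 1161504 bases away. The nearest gene, ARHGAP11A at 1735 bases, was lower (log2 fold change -0.44, adjusted p = 3.17e-06, edgeR). Around GABBR2, which had no counts, 3 of 6 neighbours were higher, among them ANKS6 (log2 fold change 0.85) and GALNT12 (0.91). There 1 neighbour, TRIM14, was lower (-0.365, adjusted p = 5.16e-06, edgeR). Lower neighbours outnumbered higher ones around GRIP1 (3 lower, 1 higher) and SLC1A2 (4 lower, 1 higher). Around SLC1A1 2 of 6 were higher, GLIS3 by 0.75 and RFX3 by 0.32 on the log2 scale, and none was lower. The neighbours lay up to 1203281 bases away.

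**Figure D3:**
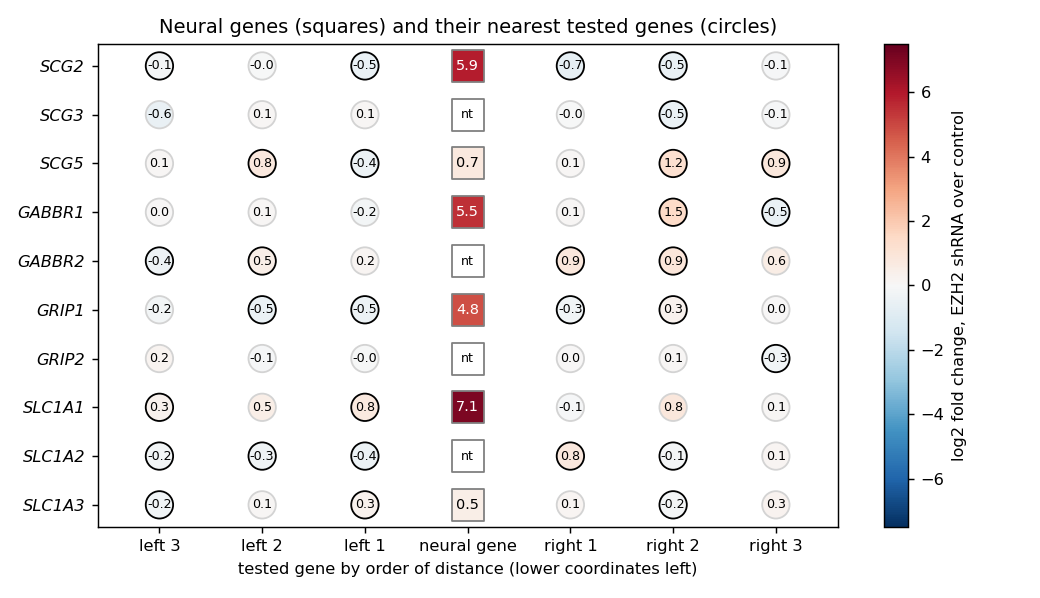
Log2 fold change, EZH2 shRNA over control, of each neural gene (square) and its 3 nearest tested genes on each side (circles, black rim where called). Squares marked nt did not pass the expression filter, and the square of SLC1A1 is a fitted value that depends on the prior count because control cells had 3 counts. The squares of SCG2, GABBR1, GRIP1 and SLC1A1, genes chosen as risers in this contrast, lie above circles that run from -0.70 to 1.45.

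Genes that work with these 10 were taken from lists of their pathways. A low gene can pass the expression filter through the group in which it is higher, so shares of tested genes are a description. Of 26 dense core granule genes, 10 had 0 counts in all libraries and 13 were tested, of which 7 were higher and 3 lower (53.8% and 23.1% of those tested, beside 23.8% and 22.9% of all tested genes), with a median log2 fold change of 0.38. RAB3C, a vesicle GTPase, had 24.2 CPM in EZH2 shRNA cells and 6.36 CPM in control cells (log2 fold change 1.93, adjusted p = 2.53e-12, edgeR). The granin CHGB, chromogranin B, had 8.20 CPM in EZH2 shRNA cells and 3.12 CPM in control cells (1.38, adjusted p = 9.78e-08, edgeR). The calcium sensor SYT7 had 0.844 CPM in EZH2 shRNA cells and 0.225 CPM in control cells (1.91, adjusted p = 8.78e-05, edgeR). The vesicle GTPases RAB3D and RAB27A were among the lower genes. CHGA, which SCG3 binds, and the convertases PCSK1 and PCSK2 that cut granin and hormone precursors, had 0 counts in all 6 libraries.

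Partners of the receptors and scaffolds were mostly at 0 or too low to test. Of 35 GABA pathway genes, 17 had 0 counts and 5 were tested, of which 4 were higher and none lower (80.0% and 0%, beside the same 23.8% and 22.9%), with a median log2 fold change of 0.37. These were KCTD12, an auxiliary subunit of the GABA-B receptor, at 33.2 CPM in EZH2 shRNA cells and 28.0 CPM in control cells (log2 fold change 0.24, adjusted p = 0.00103, edgeR), the GABA-degrading enzymes ABAT and ALDH5A1, and GAD1, which makes GABA, at 0.490 CPM in EZH2 shRNA cells and 0.114 CPM in control cells (2.03, adjusted p = 0.00270, edgeR). Of 57 glutamate receptor and scaffold genes, 23 had 0 counts and 20 were tested, of which 10 were higher and 2, GRIPAP1 and PPFIA1, lower (50.0% and 10%, beside the same 23.8% and 22.9%), with a median log2 fold change of 0.36. The count of lower genes was 1 without control library 5 or without EZH2 shRNA library 4. The AMPA receptor subunits that GRIP proteins bind were at or near 0: GRIA1, GRIA3 and GRIA4 had 0 counts in all libraries, and GRIA2 had 2 counts in EZH2 shRNA cells and 1 in control cells. EPHB2, a receptor kinase that also binds GRIP proteins, had 0.571 CPM in EZH2 shRNA cells and 0.0695 CPM in control cells (2.91, adjusted p = 1.15e-04, edgeR), with a log2 fold change of 3.88 without control library 4. The scaffold DLG3 had 0.928 CPM in EZH2 shRNA cells and 0.235 CPM in control cells (2.04, adjusted p = 1.88e-04, edgeR).

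Most tested genes of glutamate transport and metabolism were lower. Of 17 genes 12 were tested, of which 9 were lower and 1 higher (75.0% and 8.33%, beside 22.9% and 23.8% of all tested genes), with a median log2 fold change of -0.44. The neutral amino acid transporter SLC1A4, a member of the SLC1A family, fell to 92.7 CPM in EZH2 shRNA cells, against 173 CPM in control cells (log2 fold change -0.90, adjusted p = 1.75e-11, edgeR). The glutamine carrier SLC1A5 was at 352 CPM in EZH2 shRNA cells and 411 CPM in control cells (-0.22, adjusted p = 2.08e-04, edgeR). The glutamine transporter SLC38A1 was at 419 CPM in EZH2 shRNA cells and 893 CPM in control cells (-1.09, adjusted p = 2.61e-12, edgeR). The higher gene was GLUL, glutamine synthetase, at 407 CPM in EZH2 shRNA cells and 299 CPM in control cells (0.45, adjusted p = 1.22e-07, edgeR).

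Many defining markers of neurons and glia were at 0. Of 23 neuronal marker genes, 13 had 0 counts in all 6 libraries, among them RBFOX3, STMN2, NEFL, GAP43 and SNAP25, and 4 were tested, of which 3 were higher and 1 lower, beside 23.8% and 22.9% of all tested genes. Of these, SYP, a synaptic vesicle protein, had 2.31 CPM in EZH2 shRNA cells and 0.477 CPM in control cells (log2 fold change 2.25, adjusted p = 1.34e-06, edgeR). MAP2 had 53 counts in EZH2 shRNA cells and 2 in control cells, SYN2 was also higher, and ENO2 was lower. The summed level of the neuronal list was 7.23 to 7.66 FPKM in EZH2 shRNA libraries and 9.55 to 9.64 FPKM in control libraries. ENO2 carried that sum, at 4.94 FPKM in EZH2 shRNA cells and 7.83 FPKM in control cells, and the direction turned without it: the other 22 genes summed to 2.40 to 2.57 FPKM in EZH2 shRNA libraries and 1.45 to 1.92 FPKM in control libraries. Of 14 glial marker genes 5, among them AQP4, SOX10, MOG and MAG, had 0 counts and 4 were tested. Of those tested, 3 (ALDH1L1, OLIG1 and MBP) were lower and none higher (75.0% and 0%, beside 22.9% and 23.8% of all tested genes), and OLIG2 was not called. MBP, which these cells express strongly, had 173 CPM in EZH2 shRNA cells and 213 CPM in control cells. The summed level of the glial list was 11.5 to 12.0 FPKM in EZH2 shRNA libraries and 13.8 to 14.8 FPKM in control libraries. Without MBP the other 13 glial genes summed to 2.24 to 2.72 FPKM in EZH2 shRNA libraries and 2.68 to 3.65 FPKM in control libraries, ranges that overlap. The summed level of 10 myeloid marker genes was 3250 to 3390 FPKM in EZH2 shRNA libraries and 3169 to 3419 FPKM in control libraries. Most of it was MPO, and the other 9 genes summed to 650.3 to 666 FPKM in EZH2 shRNA libraries and 538 to 553 FPKM in control libraries. Of 9 tested myeloid genes, 3 (PRTN3, AZU1 and CEBPE) were higher and 3 (CTSG, PTPRC and LYZ) lower (33.3% each, beside 23.8% and 22.9% of all tested genes). PRTN3, proteinase 3, had 96.5 CPM in EZH2 shRNA cells and 21.8 CPM in control cells (log2 fold change 2.14, adjusted p = 1.55e-08, edgeR).

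REST is the repressor that keeps many neuronal genes off outside the nervous system, and granin and synaptic genes are among its known targets. REST fell to 32.8 CPM in EZH2 shRNA cells, against 49.8 CPM in control cells (log2 fold change -0.60, adjusted p = 4.11e-08, edgeR). Of 17 genes for REST and its cofactors 16 were tested, of which 9 were lower and 2, KDM1A and SIN3B, higher (56.2% and 12.5%, beside 22.9% and 23.8% of all tested genes), with a median log2 fold change of -0.17. The part of REST in the levels of the 10 genes was not tested.

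**Figure D4:**
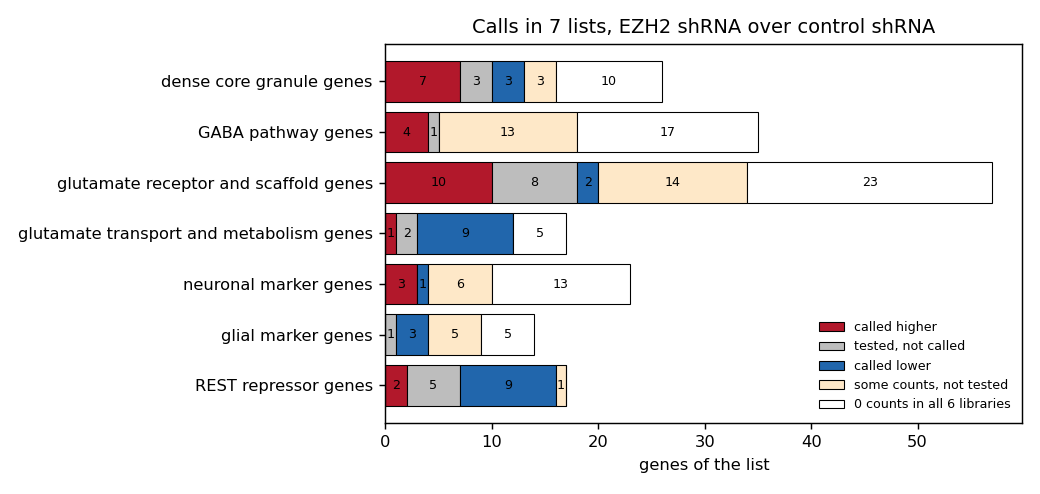
Number of genes in 7 pathway and marker lists, stacked by result: called higher or lower in EZH2 shRNA over control (adjusted p under 0.05), tested and not called, with counts but not tested, and at 0 in all 6 libraries. Higher calls outnumber lower ones in the granule, GABA, receptor and neuronal marker lists, and lower calls outnumber higher ones in the glutamate metabolism, glial and REST lists.

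The genes most like the 4 widely separated ones were found by the Euclidean distance between log2 CPM profiles over the 6 libraries. That distance uses the contrast by which the 4 were chosen, so near genes differ between the groups by construction. Likeness of level and pattern is described, and no shared function is meant. Only tested genes outside the set were searched, and those with a clone-style name in place of a symbol were left out. Nearest to SCG2 were LPL (lipoprotein lipase, distance 1.08), IL5RA (the interleukin-5 receptor alpha chain, 1.15) and SH3BGRL2 (2.26). LPL had 16.5 CPM in EZH2 shRNA cells and 0.388 CPM in control cells, against 20.1 CPM and 0.343 CPM for SCG2 in the same groups. Nearest to GABBR1 were TEX15 (1.28), FOXN4 (1.82) and SELP (1.87), and nearest to GRIP1 were TEX15 (1.61), LHFPL6 (1.76) and ADAM23 (2.01). Nearest to SLC1A1 were IKZF3 (1.89), LHFPL6 (2.26) and FBLN1 (2.43). IKZF3 had 5.90 CPM in EZH2 shRNA cells and 0.0355 CPM in control cells.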

How the data were processed

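Polyadenylated RNA of 6 HL-60 libraries was sequenced as stranded single reads of 50 bases, per the labels' protocols. The authors deposited raw counts per gene, with symbols and GRCh38 coordinates, and a table of FPKM values. Tools named without a role in the submitters' processing notes were DESeq2 1.24.0, STAR 2.5.2b, R 3.6.1 and Picard 2.18.24. Which program counted reads, on which annotation and with which strand option, is not given in the sources used here. The deposited FPKM is a rescaled form of the counts (29060 of 29060 genes gave a constant implied length, tolerance 0.001).

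The labels gave the groups. Within each group, every pair of libraries exceeded sampling noise (chi-square per degree of freedom 3.02 to 15.9), and all 6 were treated as samples. That excess cannot tell separate cultures from separate library preparations of 1 culture. The 10 genes, the lists and the tests were chosen with earlier results of these data known. All genes were fitted together in R 4.3.3 with edgeR 4.0.16 and its quasi-likelihood test (TMM scaling, filterByExpr defaults, robust dispersion, group as the only term), with Benjamini-Hochberg adjustment over 16859 genes and calls at 0.05. No p-value is given for the 10 genes. CPM values use TMM-scaled library sizes, and a positive log2 fold change means higher in EZH2 shRNA cells. Scaled count ratios divide summed counts by summed library sizes, with exact 95% intervals. A floor of 3 counts stands for a count of 0. In a single library it corresponds to 0.0353 to 0.0759 CPM. Both intervals and floors allow for counting error alone, since reads lacking molecular identifiers may be copies of 1 molecule. The scripts were tested on simulated counts.

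All 10 genes were named. Of each list, up to 6 called genes with an absolute log2 fold change of at least 1 and at least 0.5 CPM in either group were to be named, plus EZH2, SLC1A4, SLC1A5, PCSK1, PCSK2, CHGA, CHGB, the GRIA genes, KCTD12, REST, overlapping genes and the 3 genes nearest in profile. Other list genes and neighbours are named after their values were seen, to complete a count or an example, and some list genes are not reported here by name. Alternatives were DESeq2 1.42.0 (size factors, and its own test), other low-count filters, limma 3.58.1 on log2 of FPKM + 1 or + 0.1, leaving out each library, and a replicate block. Marker sums without their leading gene, and the value of SCG3 at the floor without library 4, were added after seeing the data.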

Additional observations from a re-analysis of the deposited data

How the results depend on the processing

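Depth limits the low genes: SCG3, SCG5 and SLC1A2 rest on few counts in both groups, and GRIP1, GABBR1 and SLC1A1 on few control counts. The direction of SCG2, GABBR1, GRIP1, SLC1A1, SCG5 and SLC1A3 was the same under every alternative run, and so was that of each list gene named by rule. Of 471 recomputed fold changes of single genes, 437 kept their direction and side of the threshold or, where untested, moved by less than their spread. Another 17 moved by more, 12 lost the call and 5 changed sign. On the scale of log2 of FPKM + 1, which understates changes of low genes by construction, the difference was 2.95 for SCG2, 0.61 for GABBR1, 0.52 for GRIP1, 0.87 for SLC1A1 and 0.13 for SLC1A3. With 0.1 added in place of 1 it was 5.08, 2.49, 2.27, 3.15 and 0.38 for the same genes.

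With limma on log2 of FPKM + 1, 2 GABA pathway genes were higher (4 in edgeR) and 1 neuronal marker gene (3 in edgeR), and EPHB2 missed the threshold (adjusted p = 0.0576). Without a filter on that scale, 2 GABA pathway genes, 6 glutamate receptor and scaffold genes (10 in edgeR) and 7 neighbouring genes (12 in edgeR) were higher, and 1 glutamate receptor and scaffold gene was lower (2 in edgeR). A filter of 1 CPM in 3 libraries left 6 glutamate receptor and scaffold genes higher, with 13 tested. Leaving out 1 library at a time gave 1 to 2 lower genes in that list. The call of SPATA6L was also lost with no low-count filter (adjusted p = 0.0537) and with FPKM + 1 or + 0.1 (0.175 and 0.0569), and that of HELB with FPKM + 1 or + 0.1 (0.0663 and 0.0804) and with FPKM + 1 unfiltered (0.124). Of genes not called, SEPT7P7 ran from -0.16 to 0.0323 (without control library 3) when 1 library was left out, and AC008957.1 from -0.17 to 0.12, with 0.0062 under the 1 CPM filter. The cause of these changes was not tested.

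Libraries numbered alike in both groups did not deviate together (correlation of deviations 0.0359 for number 3 and 0.0122 for number 4), and the labels do not pair them. With the number as a replicate block, which leaves 1 residual degree of freedom, 1 glutamate receptor and scaffold gene was lower, 3858 genes were higher and 3863 lower, and the log2 fold change of GRIP1 was 5.76.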
